A study of Mus musculus with 14 samples.

Results

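The 10 genes described here mark absorptive enterocytes, the nutrient-absorbing cells of the intestinal epithelium. They are the brush border enzymes sucrase-isomaltase (Sis), intestinal alkaline phosphatase (Alpi), aminopeptidase N (Anpep) and glutamyl aminopeptidase (Enpep), the structural proteins villin (Vil1) and keratin 20 (Krt20), and the lipid-handling proteins Fabp1, Fabp2, Apoa1 and Apoa4. They were taken by name as the probe sets whose platform annotation gave 1 of these symbols, a rule that uses no measured value. The names themselves were chosen with earlier results of these data known. Each symbol had 1 probe set, so the genes make up 10 of the 24675 probe sets with a gene symbol. All 10 passed the filter on low values that left 15873 genes for testing.

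Cells sorted from individual mice were profiled on Affymetrix Mouse Gene 2.0 ST arrays, 14 in all. The Atg7KO mice were Atg7(fl/fl) and carried Lgr5-EGFP-IRES-CreERT2, an allele that makes EGFP and a tamoxifen-activated Cre recombinase from the Lgr5 locus, so that recombination starts in Lgr5-expressing crypt cells. The WT mice carried the same Lgr5 allele without the floxed Atg7, a gene needed to form autophagosomes, and all mice of both genotypes received tamoxifen for 5 days and were killed 1 month later. From dissociated crypts, CD24 low cells were sorted as EGFP low (labelled transit amplifying cells) or EGFP high (labelled stem cells), giving 4 Atg7KO-Low, 4 WT-Low, 3 Atg7KO-High and 3 WT-High samples. Neither the age nor the sex of the mice is stated in the labels. Arrays are called by group and title number, and values are given in this order: Atg7KO-Low-353, Atg7KO-Low-356, Atg7KO-Low-386 and Atg7KO-Low-387, then WT-Low-341, WT-Low-407, WT-Low-409 and WT-Low-411, then Atg7KO-High-348, Atg7KO-High-356 and Atg7KO-High-386, then WT-High-388, WT-High-411 and WT-High-412.

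Lgr5 stem cells at the crypt base produce transit amplifying cells, whose progeny become either absorptive enterocytes or secretory cells as they move up the crypt. Enterocytes build a brush border of microvilli bundled by villin and plastin, anchor digestive hydrolases in its membrane, bind fatty acids in the cytosol with fatty acid binding proteins, and export dietary lipid in chylomicrons that carry apolipoproteins. HNF4, CDX2 and GATA factors are known activators of enterocyte genes. Most of these genes are known to be highest in mature villus cells. In RNA from a sorted population, fewer cells of a type and less RNA per cell cannot be told apart.

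The arrays had similar distributions, with median log2 values between 4.30 and 4.49 and standard deviations between 1.90 and 2.06. No 2 arrays held identical values. Lgr5 averaged 5.79 ± 0.52 in Atg7KO-Low (SD, n = 4), against 9.11 ± 0.12 in Atg7KO-High (n = 3), and 5.50 ± 0.67 in WT-Low (n = 4), against 9.02 ± 0.31 in WT-High (n = 3). This followed the gate labels, and Lgr5 was lower in the EGFP low gate of both genotypes (limma adjusted p = 0.000138 in the knockout and 0.000247 in wild type). Atg7 averaged 5.89 ± 0.20 in Atg7KO-Low, against 6.91 ± 0.43 in WT-Low, and 6.14 ± 0.23 in Atg7KO-High, against 6.79 ± 0.04 in WT-High. No knockout array overlapped a wild-type array of the same gate for Atg7, although neither difference passed the threshold (adjusted p = 0.166 and 0.208). Which exons of Atg7 its probe set covers was not stated in the labels or files, so this check may miss a deleted part. The mean of 6 epithelial markers lay between 9.96 and 10.6 on every array. That of 10 leukocyte markers lay between 3.78 and 4.50 and that of 10 stromal markers between 3.97 and 4.32, near the array medians. Only 7 of these leukocyte markers and 5 of these stromal markers passed the filter on low values. WT-Low-411 had the lowest epithelial mean, at 9.96, against 10.55 to 10.57 in the other WT-Low arrays. With Atg7KO-High-356 it also had the smallest standard deviations, and these are called the 2 narrowest arrays below. The mean of 7 proliferation markers lay between 8.96 and 9.26 in the 8 EGFP low arrays, against 8.81 to 9.56 in the 6 EGFP high arrays.

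Among the hydrolases, Sis, which splits sucrose and starch fragments, read 8.48, 9.41, 8.83 and 9.43 (log2) in Atg7KO-Low, against 5.83, 6.41 and 6.49 in Atg7KO-High. In wild type it read 9.88, 9.14, 8.88 and 8.13 in WT-Low, against 8.40, 6.01 and 7.20 in WT-High. The lowest Atg7KO-Low array lay about 2 log2 units above the highest Atg7KO-High array, while WT-High-388 lay above WT-Low-411.

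Alpi, which removes phosphate from lipopolysaccharide and other luminal substrates, read 7.26, 9.24, 9.32 and 9.73 in Atg7KO-Low, against 5.31, 5.19 and 6.96 in Atg7KO-High. Its values were 9.06, 7.95, 7.80 and 7.45 in WT-Low, against 7.32, 5.10 and 6.41 in WT-High. The gates did not overlap in either genotype, and Atg7KO-Low-353 stood about 2 units below the other 3 arrays of its group. Alpi lies beside other intestinal alkaline phosphatase genes of similar sequence, among them Akp3, and whether their probe sets share signal was not tested.

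The peptidases Enpep and Anpep take acidic and neutral residues from the ends of peptides. Enpep read 6.86, 8.45, 7.54 and 8.37 in Atg7KO-Low, against 5.35, 4.75 and 5.30 in Atg7KO-High, and 8.64, 8.11, 7.51 and 6.78 in WT-Low, against 7.21, 5.31 and 6.67 in WT-High. Anpep read 9.23, 10.66, 10.42 and 10.71 in Atg7KO-Low, against 8.99, 9.15 and 9.68 in Atg7KO-High, and stayed between 9.51 and 10.57 in WT-Low, against 9.44 to 10.22 in WT-High. Enpep overlapped between gates in wild type only, whereas Anpep overlapped in both genotypes, in the knockout through Atg7KO-Low-353.

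Of the structural genes, Krt20, an intermediate filament keratin of differentiated intestinal cells, read 9.64, 9.23, 9.85 and 9.89 in Atg7KO-Low, against 7.64, 6.07 and 7.59 in Atg7KO-High. In wild type it read 10.07, 10.01, 10.18 and 9.51 in WT-Low, against 9.16, 7.48 and 8.00 in WT-High. Every EGFP low array lay above every EGFP high array. Vil1, the actin-bundling protein of microvilli, kept to a narrow span, with 9.97, 9.97, 10.11 and 10.04 in Atg7KO-Low, against 9.88, 9.30 and 9.69 in Atg7KO-High, and 10.26, 10.08, 10.23 and 9.31 in WT-Low, against 10.24, 9.94 and 9.99 in WT-High. Its gates overlapped in wild type and, by a narrow margin, not in the knockout.

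The lipid genes began with Fabp1, the liver-type fatty acid binding protein, which read 9.91, 10.57, 10.15 and 11.20 in Atg7KO-Low, against 8.02, 8.30 and 8.10 in Atg7KO-High. Its values were 10.91, 10.38, 10.11 and 10.56 in WT-Low, against 10.35, 8.98 and 9.32 in WT-High. All 3 Atg7KO-High arrays lay below all 11 others. Fabp2, the intestinal-type fatty acid binding protein, ranged only between 11.48 and 11.71 in Atg7KO-Low, against 11.10 to 11.23 in Atg7KO-High, and between 11.42 and 11.70 in WT-Low, against 11.11 to 11.33 in WT-High. Its gates did not overlap in either genotype despite the small distance.

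The apolipoproteins Apoa1, the main protein of high density lipoprotein, and Apoa4, a chylomicron protein, overlapped between gates in wild type. Apoa1 read 8.35, 8.94, 9.13 and 9.85 in Atg7KO-Low, against 8.01, 7.95 and 7.39 in Atg7KO-High, and 9.20, 8.55, 8.56 and 8.43 in WT-Low, against 9.47, 7.91 and 8.53 in WT-High. Apoa4 read 8.94, 9.66, 9.30 and 10.69 in Atg7KO-Low, against 8.43, 9.03 and 8.66 in Atg7KO-High, and lay between 9.35 and 9.94 in WT-Low, against 8.70 to 10.21 in WT-High. In the knockout Apoa1 did not overlap between gates and Apoa4 did. Apoa1 and Apoa4 lie in the same apolipoprotein gene cluster on chromosome 9 (GRCm38.p6, chr9:46228630-46230469 and chr9:46240844-46243458).

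**Figure D1:**
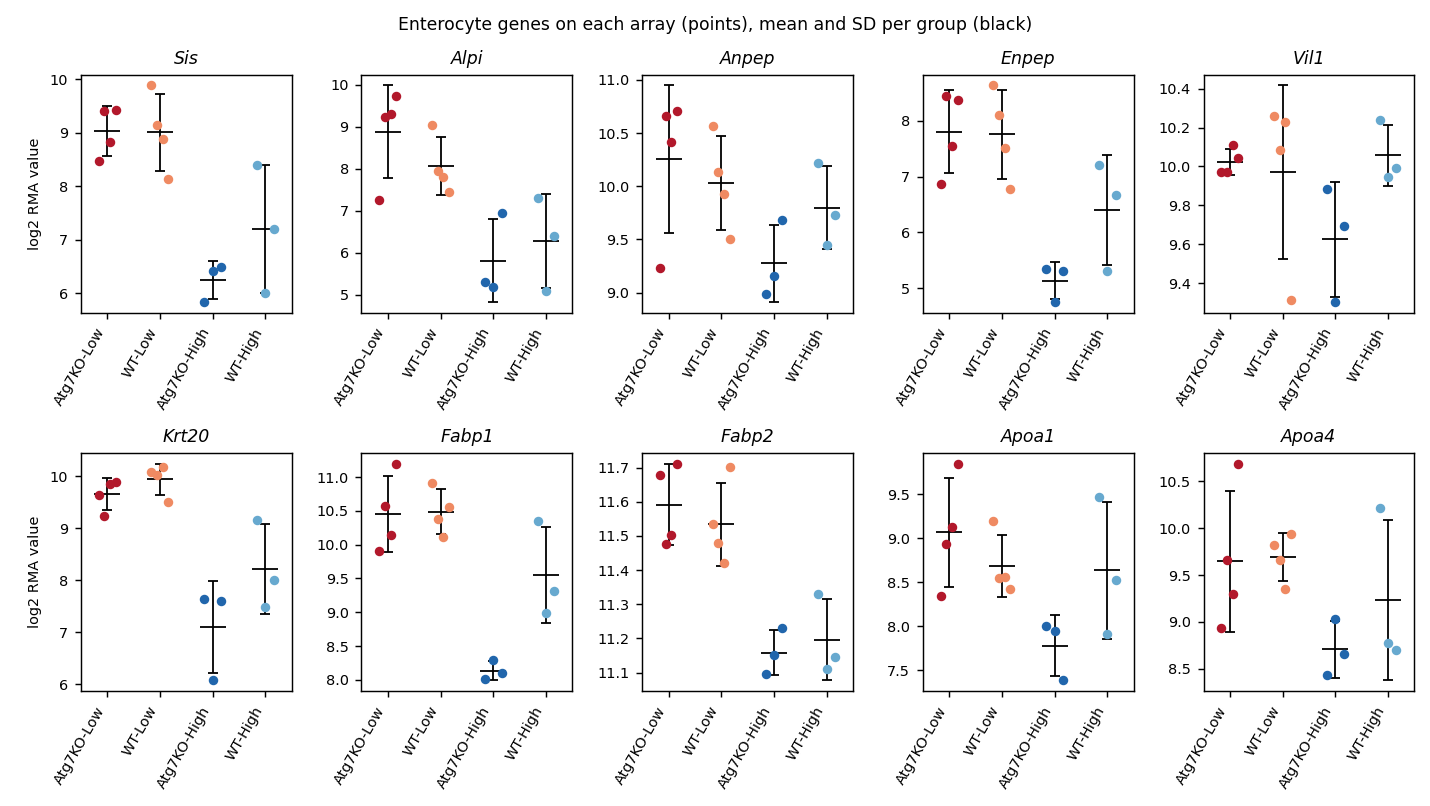
Log2 RMA value (y axis, a separate scale per gene) of each enterocyte gene on every array, with the mean and SD of each group in black; groups run Atg7KO-Low, WT-Low, Atg7KO-High and WT-High. Sis, Alpi, Enpep, Krt20 and Fabp1 sit lower in EGFP high than in EGFP low cells, while Vil1 and Fabp2 span less than 1 log2 unit, and WT-High-388 is the top WT-High point in all 10 panels.

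The first comparison asked how enterocyte RNA differed between the EGFP low and EGFP high gates of knockout mice. In Atg7KO cells 7 of the 10 genes rose in the EGFP low gate and none fell: Alpi was 8.37-fold higher, Sis 6.92-fold, Enpep 6.39-fold, Krt20 5.87-fold, Fabp1 4.99-fold, Apoa1 2.44-fold and Fabp2 1.35-fold. Of all 15873 genes tested, 6.44% were called higher and 10.9% in either direction (limma, adjusted p under 0.05 after Benjamini-Hochberg adjustment over all genes). The log2 differences were 3.07 ± 0.63 for Alpi (SE, adjusted p = 0.00758), 2.79 ± 0.47 for Sis (adjusted p = 0.00274), 2.68 ± 0.49 for Enpep (adjusted p = 0.00411), 2.55 ± 0.39 for Krt20 (adjusted p = 0.00159) and 2.32 ± 0.33 for Fabp1 (adjusted p = 0.000921). Smaller differences were called for Apoa1, at 1.29 ± 0.36 (adjusted p = 0.0347), and Fabp2, at 0.43 ± 0.13 (adjusted p = 0.0426). Anpep at 0.98 ± 0.34 (adjusted p = 0.0783), Apoa4 at 0.94 ± 0.39 (adjusted p = 0.137) and Vil1 at 0.40 ± 0.21 (adjusted p = 0.247) did not pass. The median difference over the 10 genes was 1.80, against -0.02 over all genes tested. In 8 of 10 genes every EGFP low array lay above every EGFP high array, against 11.8% of all genes. All 10 differences were above 0, as were 47.9% of all genes.

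Sis, Krt20 and Fabp1 passed under every alternative setting run. The calls of Apoa1 and Fabp2 were the least secure. The call of Apoa1 ended without Atg7KO-Low-356, Atg7KO-Low-386 or Atg7KO-Low-387 or any 1 Atg7KO-High array (differences of 1.03 to 1.40, adjusted p up to 0.106). That of Fabp2 ended without Atg7KO-Low-353, Atg7KO-Low-386, Atg7KO-Low-387, WT-Low-341, WT-Low-407, WT-High-411 or WT-High-412, or any 1 Atg7KO-High array (differences of 0.39 to 0.47, adjusted p up to 0.130). Cyclic loess normalization ended both, with 1.10 for Apoa1 (adjusted p = 0.0867) and 0.20 for Fabp2 (adjusted p = 0.414). Fitting only the groups of the comparison ended both as well (adjusted p = 0.05005 and 0.102). So did leaving out the 2 narrowest arrays (0.0796 and 0.0836). Apoa1 alone also missed with repeated quantile normalization (0.0880), no filter (0.0507) and array weights (0.0624). Fabp2 alone missed with a fixed replicate block (0.530) and with the level of Y-linked genes as a covariate (0.0557). Anpep passed once Atg7KO-Low-353 was left out (1.32, adjusted p = 0.00837). With each array's standard deviation as a covariate, Alpi (2.93, adjusted p = 0.0710) and Enpep (2.42, adjusted p = 0.0565) also missed the threshold. So did Apoa1 (1.64, adjusted p = 0.0629) and Fabp2 (0.56, adjusted p = 0.0529). That standard deviation was 1.900 to 1.976 in Atg7KO-High, against 1.980 to 2.035 in Atg7KO-Low, so it went with the gate in the knockout. In wild type the gates overlapped, with 1.992 to 2.063 in WT-High, against 1.904 to 2.056 in WT-Low. Its part in the gate differences was not tested. Calls over all genes split into 1023 higher and 711 lower, and into 1251 higher and 440 lower when array medians were set equal.

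The same comparison in wild type gave a lower estimate for each of the 10 genes. Only Krt20 rose in the EGFP low gate, 3.31-fold (1.73 ± 0.39, adjusted p = 0.0351), which is 1 of 10 genes, against 1.22% of all genes called higher and 2.44% in either direction. Sis at 1.80 ± 0.47 (adjusted p = 0.0599), Alpi at 1.79 ± 0.63 (adjusted p = 0.171), Enpep at 1.36 ± 0.49 (adjusted p = 0.183), Fabp1 at 0.94 ± 0.33 (adjusted p = 0.165) and Fabp2 at 0.34 ± 0.13 (adjusted p = 0.206) had an unadjusted p under 0.05 but did not pass. With Krt20 that made 6 of 10 genes, against 5.91% of all genes higher at that level. Apoa4 differed by 0.47, Anpep by 0.23, Apoa1 by 0.05 (95% interval -0.72 to 0.82) and Vil1 by -0.09 (95% interval -0.54 to 0.37). The median over the 10 genes was 0.70, against -0.03 over all genes. The groups did not overlap for Krt20, Alpi and Fabp2, 3 of 10 genes, against 6.52% of all genes.

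The Krt20 call in wild type ended without WT-Low-341 (adjusted p = 0.0684), WT-Low-407 (0.0695), WT-Low-409 (0.0944), WT-High-411 (0.178) or WT-High-412 (0.147), with differences of 1.36 to 1.70. It also ended with no filter (adjusted p = 0.0519) and with array standard deviation as a covariate (adjusted p = 0.0561). Sis passed without WT-Low-411 (2.10, adjusted p = 0.0401) or WT-High-388 (2.40, adjusted p = 0.0270). When noisier arrays were given less weight, 5 genes passed (Krt20, Sis, Alpi, Enpep and Fabp1). A call in the knockout and none in wild type does not show that the gate difference depended on genotype. That difference between genotypes was tested itself and is given with the knockout comparisons.

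**Figure D2:**
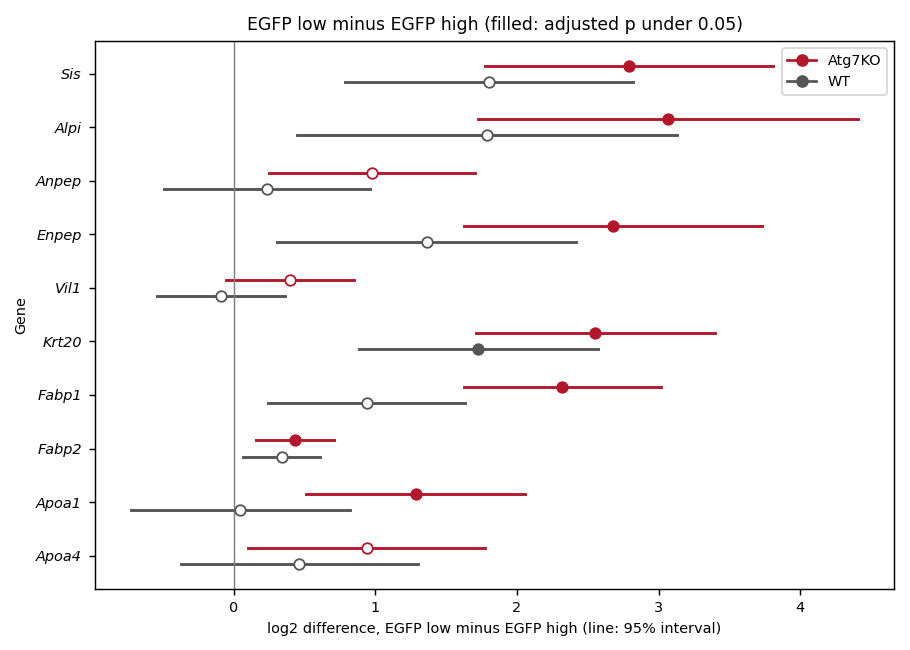
Log2 difference, EGFP low minus EGFP high (x axis), of each enterocyte gene (y axis) in Atg7KO and in WT cells, with 95% intervals from limma and filled points for adjusted p under 0.05. All 10 Atg7KO points lie right of 0 and 7 are filled, while in WT only Krt20 is filled and Vil1 lies at -0.09.

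Markers of other lineages moved with the gate as well. Over all genes tested, 6.44% were called higher and 4.48% lower in the knockout, against 1.22% higher and 1.22% lower in wild type. Of the 11 goblet markers tested, 10 rose and 1 fell in the EGFP low gate of the knockout, and 7 rose in wild type; their mean lay between 10.1 and 10.6 in Atg7KO-Low, against 7.60 to 9.35 in Atg7KO-High, and between 10.4 and 10.8 in WT-Low, against 8.96 to 9.52 in WT-High. Of 8 Paneth markers 5 rose in the knockout and 1 in wild type, and of 12 enteroendocrine markers 7 rose in the knockout and 5 in wild type. The Lgr5 stem cell markers fell, 10 of 12 in the knockout and 11 of 12 in wild type. Their part in the enterocyte result was not tested.

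Gene starts are shown because 7 of the 10 genes were called higher together in the knockout gate comparison, against 6.44% of all genes. In wild type 1 of the 10 was called, against 1.22% of all genes, and none was called for the difference between genotypes. RefSeq (GRCm38.p6) held a window of 250 bases before and 50 bases after the annotated start for all 10 genes. The windows were searched on both strands for exact matches to the TATA box letters TATAAA, the HNF4 motif CAAAGTCCA, the CDX2 motif TTTATNG and the GATA factor motif AGATAA. Sequences run 5′ to 3′ on the gene's own strand and end at the base before the start, with letters matching any motif in capitals. Fabp1 and Sis are shown with 250 bases because their matches are spread over that length, and Krt20, Alpi and Fabp2 with 100 bases because their CDX2 motif lies there. Vil1 is shown as a gene with none of the motifs in its window and no gate call.
Fabp1, chr6:71199629-71199878, plus strand: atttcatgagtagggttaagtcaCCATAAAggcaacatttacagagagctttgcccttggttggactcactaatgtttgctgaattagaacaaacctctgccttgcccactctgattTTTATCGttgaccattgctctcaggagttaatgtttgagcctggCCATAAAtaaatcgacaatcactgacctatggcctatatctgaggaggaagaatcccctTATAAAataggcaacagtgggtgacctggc
Sis, chr3:72967864-72968113, minus strand: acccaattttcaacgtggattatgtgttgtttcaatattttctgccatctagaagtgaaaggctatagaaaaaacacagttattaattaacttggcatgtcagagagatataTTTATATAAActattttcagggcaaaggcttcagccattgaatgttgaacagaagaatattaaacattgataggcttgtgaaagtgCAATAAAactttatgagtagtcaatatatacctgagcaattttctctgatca
Krt20, chr11:99438154-99438253, minus strand: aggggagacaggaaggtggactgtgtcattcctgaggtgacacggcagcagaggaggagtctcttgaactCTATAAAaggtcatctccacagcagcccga
Alpi, chr1:87101607-87101706, minus strand: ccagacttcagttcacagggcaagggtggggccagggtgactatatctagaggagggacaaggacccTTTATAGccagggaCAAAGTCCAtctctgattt
Fabp2, chr3:122894972-122895071, plus strand: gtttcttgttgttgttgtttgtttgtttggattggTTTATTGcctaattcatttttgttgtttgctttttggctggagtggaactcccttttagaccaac
Vil1, chr1:74409284-74409383, plus strand: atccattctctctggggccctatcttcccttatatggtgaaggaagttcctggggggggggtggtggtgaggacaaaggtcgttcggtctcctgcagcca

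The CDX2 motif was found in 5 of the 10 windows (Sis, Fabp1, Fabp2, Krt20 and Alpi), against 10.9% of all 32851 windows. Fabp1 held 3 copies, starting 227, 133 and 89 bases before the start. The TATA motif was found on either strand in 5 windows (Sis, Enpep, Fabp1, Krt20 and Alpi), against 13.6% of all windows. Sis, Fabp1 and Krt20 had a match on the gene's own strand, while Enpep and Alpi had it only on the opposite strand. In Fabp1 the TATA motif started 30 bases before the start. In Krt20 and Alpi it shared letters with the CDX2 motif 24 to 33 bases before the start. The HNF4 motif was found only in Alpi, 11 to 19 bases before the start, against 0.475% of all windows. The GATA motif was found only in Krt20, against 11.2% of all windows. Anpep, Vil1, Apoa1 and Apoa4 held none of these letters in their windows. Of these, Apoa1 was called in the knockout gate comparison, and Anpep, Vil1 and Apoa4 were not. Enpep, which had only the TATA motif, was called there too. A match describes the sequence and shows no binding.

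Other genes of the brush border and of lipid absorption were read from 4 further lists. Over all genes tested, 6.44% were called higher and 4.48% lower in the knockout gate comparison, with a median of -0.02. In that comparison 4 of 15 brush border structure genes rose and none fell (median 0.32). They were the microvillar adhesion protein Cdhr5 (1.30 ± 0.16, adjusted p = 0.000446), the brush border myosin Myo1a (1.22 ± 0.20, adjusted p = 0.00240), the actin bundler plastin 1 (Pls1, 0.86 ± 0.18, adjusted p = 0.00916) and the adhesion complex scaffold Anks4b (0.75 ± 0.22, adjusted p = 0.0443). Of 16 hydrolases 4 rose and none fell (median 0.73): the ectonucleotidase Enpp3 (1.80 ± 0.32, adjusted p = 0.00341), the metalloprotease meprin beta (Mep1b, 1.43 ± 0.34, adjusted p = 0.0166), the alkaline phosphatase Akp3 (2.46 ± 0.65, adjusted p = 0.0261) and the neutral ceramidase Asah2 (1.05 ± 0.32, adjusted p = 0.0494). The call of Anks4b ended without Atg7KO-Low-386, Atg7KO-Low-387, WT-Low-341, any 1 Atg7KO-High array or any 1 WT-High array (adjusted p up to 0.115), and that of Asah2 without Atg7KO-Low-356, Atg7KO-Low-386, Atg7KO-Low-387, WT-Low-407, WT-Low-409, WT-High-411, WT-High-412 or any 1 Atg7KO-High array (up to 0.121). That of Akp3 ended without Atg7KO-Low-386, Atg7KO-Low-387, Atg7KO-High-348 or Atg7KO-High-356 (up to 0.0893), that of Pls1 without Atg7KO-High-356 (0.0535) and that of Mep1b without Atg7KO-High-386 (0.0554). With array standard deviation as a covariate 2 structure genes and 0 hydrolases were called.

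Of 25 genes of lipid absorption and chylomicrons, 7 rose and 1 fell in the knockout gate comparison (median 0.40). Of all genes, 6.44% were called higher there and 4.48% lower. The cholesterol transporter Npc1l1 (1.79 ± 0.21, adjusted p = 0.000298), the retinol binding protein Rbp2 (1.65 ± 0.33, adjusted p = 0.00681) and the triglyceride synthesis enzyme Dgat2 (1.07 ± 0.23, adjusted p = 0.00920) rose, and the fatty acid transport protein Slc27a2 fell (-0.93 ± 0.19, adjusted p = 0.00751). Mttp, which loads lipid onto apolipoprotein B, was among the others that rose. Of 17 transcription factors 5 rose and none fell (median 0.37), among them Klf4 (1.99 ± 0.33, adjusted p = 0.00236), the nuclear receptor Nr1i3 (1.20 ± 0.27, adjusted p = 0.0117), Maf (2.01 ± 0.47, adjusted p = 0.0154) and the homeobox gene Isx (0.92 ± 0.22, adjusted p = 0.0188). Klf4 is also known as a goblet cell factor. Without Atg7KO-High-348 the lipid list had 3 genes called higher, Npc1l1, Rbp2 and Dgat2, so the call of Mttp ended. The transcription factor list then had 3. The call of Isx ended without Atg7KO-Low-386, Atg7KO-High-348 or Atg7KO-High-356 (adjusted p up to 0.0833), and that of Dgat2 without Atg7KO-High-356 (0.0540). With array standard deviation as a covariate 3 lipid genes and 1 transcription factor were called higher, and none lower.

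In the wild-type gate comparison Cdhr5 (1.06 ± 0.16, adjusted p = 0.00504), Enpp3 (1.86 ± 0.32, adjusted p = 0.00884) and Npc1l1 (0.91 ± 0.21, adjusted p = 0.0357) rose. Slc27a2 (-0.87 ± 0.19, adjusted p = 0.0279) and the vitamin D receptor Vdr (-0.80 ± 0.20, adjusted p = 0.0484) fell. These were the only calls in the 4 lists, whose medians were 0.12 for structure, 0.20 for hydrolases, 0.33 for lipid genes and 0.03 for transcription factors. Over all genes tested in wild type, 1.22% were called higher and 1.22% lower, with a median of -0.03. With any 1 array left out Cdhr5 was still called. The call of Enpp3 ended without WT-High-411 or WT-High-412 (adjusted p up to 0.0539), that of Npc1l1 without WT-Low-341, WT-Low-407, WT-Low-409, WT-High-411 or WT-High-412 (up to 0.178), that of Slc27a2 without WT-Low-409, WT-Low-411, WT-High-388 or WT-High-412 (up to 0.126), and that of Vdr without any 1 array other than Atg7KO-Low-356 (up to 0.193).

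**Figure D3:**
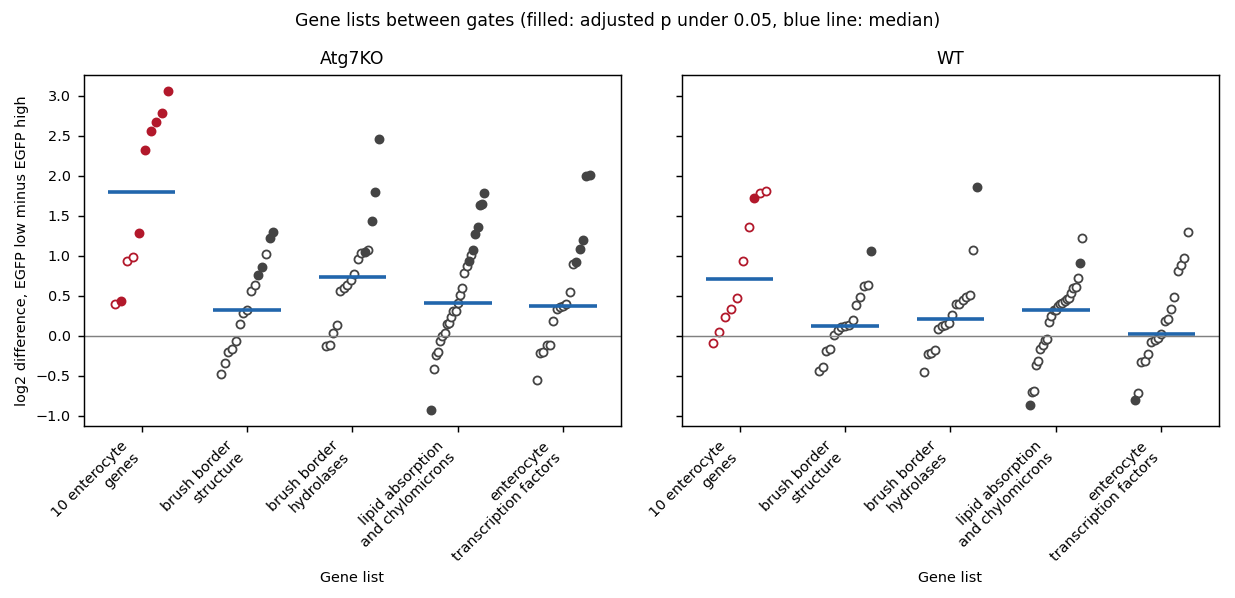
Log2 difference, EGFP low minus EGFP high (y axis), of each gene tested in the 10 enterocyte genes and the 4 further lists (x axis), in Atg7KO (left) and WT (right) cells, with filled points for adjusted p under 0.05 and a blue line at the median. In Atg7KO the medians run between 0.32 and 1.80, and in WT between 0.03 and 0.70.

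Knockout and wild-type cells were next compared within each gate. In the EGFP low gate none of the 10 genes passed in limma's test and none had an unadjusted p under 0.05, against 0.0063% and 7.26% of all genes. Alpi differed by 0.82 ± 0.58 (95% interval -0.42 to 2.06), Apoa1 by 0.38 ± 0.33, Krt20 by -0.29 ± 0.37 and Anpep by 0.22 ± 0.31. Sis differed by 0.03 (95% interval -0.91 to 0.97), Fabp1 by -0.03 (-0.68 to 0.61), Enpep by 0.05 (-0.93 to 1.02), Vil1 by 0.05 (-0.37 to 0.47), Apoa4 by -0.05 (-0.82 to 0.73) and Fabp2 by 0.06 (-0.20 to 0.31). No gene had every knockout array above or below every wild-type array, against 1.71% of all genes above and 1.69% below, and the median difference was 0.05. For Fabp2 and Vil1 these intervals leave room for less than a 1.5-fold difference either way, and for Sis and Enpep for about 2-fold.

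In the EGFP high gate all 10 differences, knockout minus wild type, were below 0, as were 53.8% of all genes, and none passed the threshold in limma's test, against 0.0126% of all genes called. Fabp1 had the largest distance, with -1.41 ± 0.35 and an adjusted p of 0.133 (unadjusted p = 0.00109). Krt20 at -1.11 ± 0.42 (adjusted p = 0.239), Enpep at -1.27 ± 0.53 (adjusted p = 0.268) and Apoa1 at -0.85 ± 0.39 (adjusted p = 0.300) also had an unadjusted p under 0.05. That made 4 of 10 genes, against 9.88% of all genes lower at that level. Sis differed by -0.96 ± 0.51, Anpep by -0.52 ± 0.36, Apoa4 by -0.52 ± 0.42, Alpi by -0.46 ± 0.67, Vil1 by -0.43 ± 0.23 and Fabp2 by -0.04 ± 0.14. The median was -0.69, against -0.03 over all genes. Every knockout array lay below every wild-type array for Fabp1 and Vil1, 2 of 10 genes, which is near the 15.2% of all genes.

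These differences moved with single arrays in both directions, and none passed with any 1 array left out. WT-High-388 was the highest WT-High array for 10 of 10 genes, and without it the differences were -1.01 for Fabp1 (adjusted p = 0.197), -0.86 for Enpep, -0.64 for Krt20, -0.44 for Apoa1, -0.36 for Sis, -0.34 for Vil1, -0.31 for Anpep, -0.03 for Apoa4, 0.03 for Fabp2 and 0.06 for Alpi. Without WT-High-411, which lay below its group mean for all 10 genes, the distances were wider, at -1.81 for Enpep, -1.70 for Fabp1, -1.55 for Sis, -1.48 for Krt20, -1.22 for Apoa1 and -1.05 for Alpi. Without Atg7KO-High-356 the difference was -0.60 for Krt20, -0.27 for Vil1 and -0.14 for Alpi. That of Alpi was -0.20 without Atg7KO-High-348 and -1.03 without Atg7KO-High-386, and that of Apoa4 was -0.79 without WT-High-412. Among the markers, WT-High-388 had a stem cell marker mean of 8.35, inside the span of 8.19 to 8.37 for WT-High. It had the highest goblet mean of that group (9.52) and its lowest Paneth mean (9.37). Its enteroendocrine (6.42), proliferation (9.33) and epithelial (10.31) means were also the lowest of WT-High. With array weights Fabp1 passed (-1.29, adjusted p = 0.0377), and so did 703 genes in all, against 2 without weights. No gene of the cell type marker lists was called in Atg7KO-High against WT-High. Below 0 were all 7 proliferation markers (median -0.49), all 6 epithelial markers (median -0.21), 10 of 11 goblet markers (median -0.98) 7 of 8 Paneth markers (median -0.57), 5 of 7 leukocyte markers (median -0.19) and 3 of 6 tuft markers (median -0.11). Above 0 were 8 of 12 Lgr5 stem cell markers (median 0.07), 6 of 12 enteroendocrine markers (median 0.01), 4 of 5 stroma markers (median 0.13) and the 1 erythroid marker (0.31). The standard deviation over all values of an array was 1.90 to 1.98 in Atg7KO-High, against 1.99 to 2.06 in WT-High. The part of these in the enterocyte values was not tested.

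**Figure D4:**
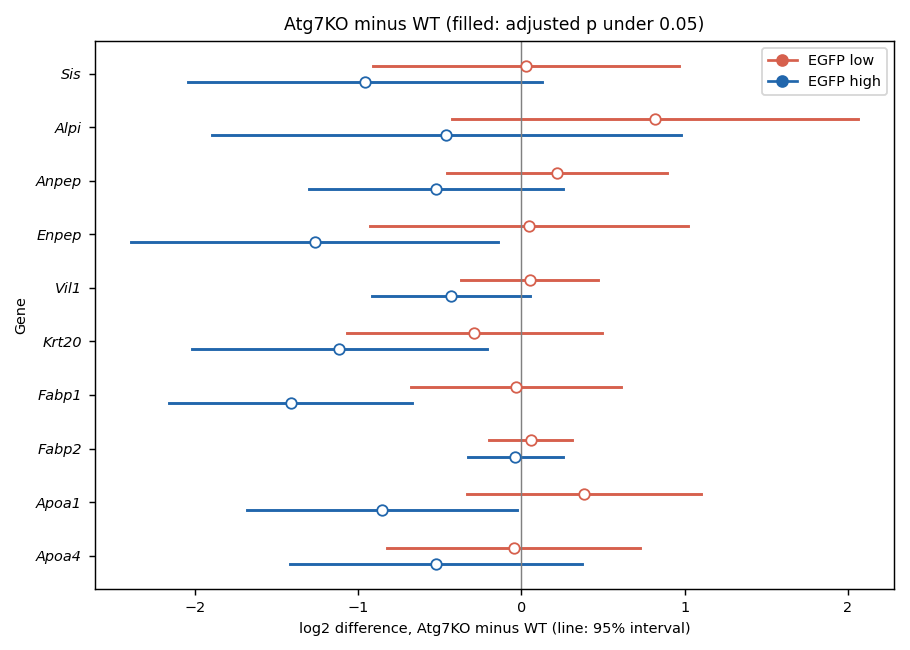
Log2 difference, Atg7KO minus WT (x axis), of each enterocyte gene (y axis), drawn separately for EGFP low and EGFP high cells, with 95% intervals from limma. No point is filled, since none passed adjusted p under 0.05; the EGFP high points run between -1.41 (Fabp1) and -0.04 (Fabp2), and the EGFP low points between -0.29 (Krt20) and 0.82 (Alpi).

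None of the genes of the 4 further lists passed between knockout and wild type in either gate. Of all genes, 0.0126% passed in EGFP high and 0.0063% in EGFP low cells. In EGFP high cells the list medians were -0.24 for structure, -0.43 for hydrolases, -0.29 for lipid genes and -0.15 for transcription factors. The genes with the smallest p were Pls1 (-0.80 ± 0.19, limma adjusted p = 0.131) and Myo1a (-0.74 ± 0.22) for structure. For hydrolases they were Mep1b (-0.96 ± 0.36) and the peptidase Ace (-0.90 ± 0.40). For lipid genes they were Npc1l1 (-0.88 ± 0.22, adjusted p = 0.133) and the sterol exporter Abcg5 (0.75 ± 0.25). For transcription factors they were Klf4 (-1.06 ± 0.35) and Isx (-0.61 ± 0.24). Abcg5 was the only one of these 8 above 0. In EGFP low cells the medians were -0.11, 0.03, 0.02 and 0.20 in the same order of lists. The smallest p belonged there to the adhesion scaffold Ush1c (-0.54 ± 0.20) and the sodium-proton exchanger Slc9a3 (0.51 ± 0.29), Akp3 (1.67 ± 0.60) and Enpp3 (-0.61 ± 0.30), the lipoprotein receptor Scarb1 (-0.44 ± 0.16) and the chylomicron secretion GTPase Sar1b (0.36 ± 0.15), and the intestinal homeobox factor Cdx2 (0.39 ± 0.22) and Maf (0.75 ± 0.44).

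Whether the knockout effect differed between gates was tested as the effect in EGFP low minus that in EGFP high cells, which is also the gate difference in the knockout minus that in wild type. All 10 differences were above 0, as were 52.9% of all genes, and none passed in limma's test, against 0.0063% of all genes called. Fabp1 at 1.38 ± 0.46 (adjusted p = 0.256) and Apoa1 at 1.24 ± 0.51 (adjusted p = 0.310) had an unadjusted p under 0.05, 2 of 10 genes, against 8.49% of all genes higher at that level. Enpep differed by 1.31 ± 0.70, Alpi by 1.28 ± 0.89, Sis by 0.99 ± 0.67, Krt20 by 0.83 ± 0.56, Anpep by 0.74 ± 0.48, Vil1 by 0.48 ± 0.30, Apoa4 by 0.47 ± 0.55 and Fabp2 by 0.09 ± 0.18. The median was 0.91, against 0.03 over all genes. The Atg7KO-High arrays also enter the knockout gate comparison, the WT-High arrays the wild-type one, and both the knockout comparison in EGFP high cells, so these are not separate observations. No gene of the 4 further lists passed here, and their medians were 0.19, 0.47, 0.31 and 0.31. The smallest p belonged to Pls1 (0.78 ± 0.26) and the brush border scaffold Slc9a3r1 (0.72 ± 0.29), Mep1b (0.98 ± 0.48) and Ace (0.91 ± 0.53), Npc1l1 (0.88 ± 0.29) and Abcg5 (-0.92 ± 0.33), and Isx (0.71 ± 0.32) and Cdx2 (0.60 ± 0.33).

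Arrays of one group differed from each other in most of these genes together. WT-High-411 was the lowest WT-High array for 9 of 10 genes, opposite to WT-High-388. Atg7KO-Low-387 was the highest of its group for 8 genes and Atg7KO-Low-353 the lowest for 7, while WT-Low-341 was the highest for 7 and WT-Low-411 the lowest for 7. The 3 Atg7KO-High arrays showed no such order, with Atg7KO-High-348 highest for 4 genes and lowest for 5. Averaged over the 10 genes, arrays deviated from their group mean by between -0.65 (WT-High-411) and 0.73 (WT-High-388).

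**Figure D5:**
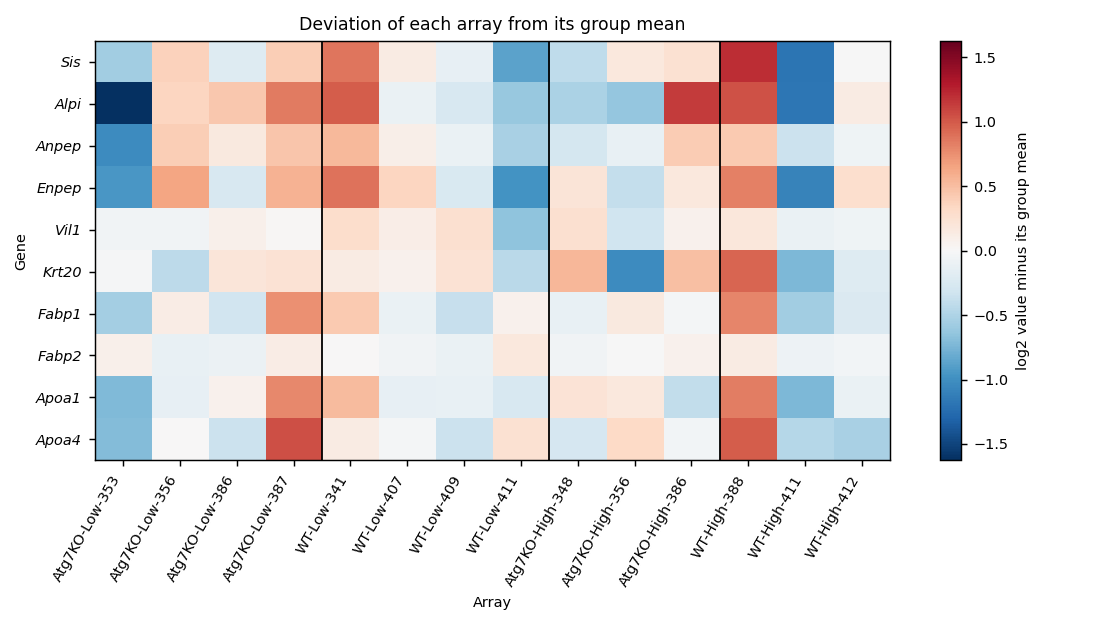
Log2 value of each enterocyte gene (y axis) minus its group mean, by colour, on each of the 14 arrays (x axis), with black lines between the groups Atg7KO-Low, WT-Low, Atg7KO-High and WT-High. WT-High-388 is above its group mean for all 10 genes and WT-High-411 below it, while the rows of Vil1 and Fabp2 are pale.

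The deviations of a gene on the 14 arrays were also set against the mean deviation of the other 9 genes. For this mean each gene's deviations were first divided by their root mean square, unlike in the averages above. Pearson's r was 0.88 for Sis, 0.85 for Fabp1 and Alpi, 0.84 for Enpep and Apoa1, 0.78 for Anpep, 0.71 for Apoa4, 0.57 for Krt20, 0.37 for Vil1 and 0.20 for Fabp2. The 5 other genes with the highest r against the mean of all 10 were Ace (0.95), Btnl6 (0.91), Sectm1b (0.91), Asah2 (0.88) and 2010106E10Rik (0.88). These values describe 14 arrays that share the group means taken from them. Between gates, Ace, Asah2, Btnl6 and 2010106E10Rik lay above 0 in both genotypes, by 0.49 to 2.50 in the knockout and by 0.12 to 1.18 in wild type. Of these, 2010106E10Rik (2.50 ± 0.56, adjusted p = 0.0124) and Asah2, given above, rose in the knockout and none was called in wild type. Sectm1b fell in the EGFP low gate (-0.87 ± 0.25 in the knockout, limma adjusted p = 0.0374, and -1.12 ± 0.25 in wild type, adjusted p = 0.0309).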

How the data were processed

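RNA of 14 sorted samples was measured on 1 array each, after amplification of 1 ng of total RNA per the labels' protocols. The submitters' processing notes name RMA in Affymetrix Expression Console, with which the authors made the deposited log2 values; versions and probe grouping are not given in these sources. RMA corrects the background, quantile normalizes and summarises probes, and can narrow large differences. Of 25429 probe sets, 24675 had 1 gene symbol. The 15873 genes that reached an array's 40th percentile in 3 arrays or more were tested.

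Group means over all 14 arrays were fitted with limma 3.58.1 (lmFit, eBayes) in R 4.3.3. P-values are two-sided and Benjamini-Hochberg adjusted over all genes tested; a gene was called, and is said to have risen or fallen, at adjusted p under 0.05. The procedure was tested on simulated data. SE and 95% intervals come from this fit. Samples came from individual mice per the labels. Precision is limited by the number of arrays. Levels of different probe sets were not compared.

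The 10 genes and the lists were chosen with earlier results of these data known. Named genes were the 10, up to 4 called genes of each further list by smallest p (or the 2 with the smallest p where none was called), the 5 with the most similar deviations, Atg7 and Lgr5; markers were given as list means. Mttp was named after its value was seen. Some symbols of the further lists are not analysed here; Tmigd1, Tmprss15, Apoc2, Apoa5, Cd36 and Prdm1 did not pass the filter. Alternatives were other normalizations, filters, weights, covariates and blocks, and each array left out. Promoters and positions came from RefSeq tables (GRCm38.p6).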

Additional observations from a re-analysis of the deposited data

How the results depend on the processing

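For the 10 genes in 5 comparisons, 653 of 700 values with 1 array left out kept their direction and side of the threshold, 21 lost the call, 3 gained it and 23 changed sign; of 610 values under the other settings these counts were 559, 18, 8 and 25. No value that changed sign was called in either setting, and the causes were not tested. For the knockout in EGFP low cells no gene was called under any setting, nor for the difference between gates. In EGFP high cells 1 was called with array weights (0 otherwise), with 703 against 2 over all genes. Between gates in wild type the 1 call became 0 with a fixed replicate block, 0 with no filter, 0 with array SD as a covariate, 2 with cyclic loess, 2 with the strict filter, 2 without the 2 narrowest arrays, 5 with array weights and 0 to 2 with 1 array left out. In the knockout the 7 gate calls became 3 with array SD as a covariate and 5 to 7 with 1 array left out. Other settings, given above, ended Apoa1, Fabp2 or both. Over all genes the gate calls numbered 1734 in the knockout and, in wild type, 194 higher and 193 lower. They became 610 and 12 with the fixed replicate block, 495 and 314 with array SD as a covariate, 1723 and 1201 with array weights, 1110 and 361 without the 2 narrowest arrays, and 781 to 2122 and 103 to 442 with 1 array left out. With only the groups of the comparison fitted, the knockout had 1027. In EGFP high cells, knockout against wild type, leaving out 1 array gave 1 to 43 genes. Setting array medians equal moved the median of all genes by -0.10 for the knockout in EGFP high cells and by 0.12 for the difference between gates, and changed no sign among the 10 genes.

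Of the title numbers, 3 occur in both gates. Deviations correlated at 0.11 for Atg7KO-High-356 with Atg7KO-Low-356, at 0.18 for Atg7KO-High-386 with Atg7KO-Low-386 and at -0.04 for WT-High-411 with WT-Low-411. High and Low arrays with different numbers correlated at -0.17 (WT-High-388 with WT-Low-407) to 0.16 (WT-High-412 with WT-Low-407). These values do not settle whether the numbers pair the samples. The labels do not say that a number names the mouse, so it was not used for pairing in the main fit. A random replicate block (consensus correlation 0.073) left the number of called genes among the 10 as it was in each comparison; over all genes the calls became 445 between gates in wild type, 1965 in the knockout and 2 (against 1) for the difference between gates. The fixed block, whose gate differences rest on 1 shared number in wild type and 2 in the knockout, ended the calls of Krt20 in wild type (2.03, adjusted p = 0.105) and Fabp2 in the knockout (0.30, adjusted p = 0.530). In the further lists it ended all 5 wild-type calls (Cdhr5, Enpp3, Npc1l1, Slc27a2 and Vdr, adjusted p = 0.117 to 0.406) and 6 of 16 named knockout calls (Pls1, Anks4b, Asah2, Slc27a2, Dgat2 and Nr1i3, adjusted p = 0.0582 to 0.119). The random block turned Sis in EGFP low cells to -0.00028.

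For the knockout in EGFP low cells Sis became -0.055 with repeated quantile normalization, -0.021 with cyclic loess, -0.28 with array weights and -0.26 without the 2 narrowest arrays. Vil1 became -0.076 with repeated quantile normalization, -0.047 with loess, -0.082 with weights, -0.025 with array SD as a covariate and -0.17 without the narrowest arrays. Enpep became -0.35 with weights, -0.015 with the SD covariate and -0.28 without the narrowest arrays, Fabp2 -0.079 with loess, Anpep -0.028 with weights, Fabp1 0.067 with the SD covariate, and Apoa4 0.10 with that covariate and 0.035 without the narrowest arrays. In EGFP high cells Fabp2 became 0.12 with loess. Between gates in wild type Vil1 became 1.2e-05 with loess, 0.083 with weights, 0.057 with the SD covariate and 0.13 without the narrowest arrays, and Apoa1 -0.11 with the SD covariate. The difference between gates became -0.20 for Fabp2 with loess. With 1 array left out, the ranges that crossed 0 were, in EGFP low cells, Apoa4 -0.40 to 0.19, Enpep -0.28 to 0.36, Fabp1 -0.28 to 0.15, Sis -0.26 to 0.32 and Vil1 -0.17 to 0.15. In EGFP high cells they were Alpi -1.05 to 0.062 and Fabp2 -0.080 to 0.031, between gates in wild type Apoa1 -0.31 to 0.46 and Vil1 -0.18 to 0.13, and for the difference between gates Apoa4 -0.018 to 0.74. The same settings were added for the named genes of the further lists after seeing the data; none of their differences changed sign.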
